A study of Mus musculus with 39 samples.

Results

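The genes described here are 8 mouse genes of antigen presentation by major histocompatibility complex (MHC) class I. They were chosen by symbol, and all 8 were found among the 50559 genes of each count table. They comprise the heavy chains H2-K1, H2-D1 and H2-T23, the light chain B2m, the peptide transporter subunits Tap1 and Tap2, the loading factor Tapbp and the transcriptional regulator Nlrc5.

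The series addresses the joint effect of amyloid and tau pathology on brain circuits for memory and emotion, and it measured bulk RNA of the basolateral amygdala (BLA) and the hippocampus in female mice aged 9 months. APP/Tau mice (APP/Tau;CaMKIIαCre;RiboTag) carried the transgenes APPSw,Ind of the J9 line and Tau P301S of the PS19 line, and controls (WT;CaMKIIαCre;RiboTag) lacked both. Naive mice of each genotype were set beside trained mice, which heard a 30 s tone that ended in a 2 s footshock of 0.8 mA and were killed 1 h later. All groups, controls included, carried a Cre driver active in glutamatergic forebrain neurons and a ribosomal tag, and the libraries are the input lysates, so that every cell type of the tissue contributed.

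The BLA was represented by 5 naive and 4 trained APP/Tau mice and by 5 naive and 5 trained controls. The hippocampus was represented by 5 naive and 4 trained APP/Tau mice and by 5 naive and 6 trained controls. Replicates are named by the number in their label. Total counts ranged from 50.3 to 74.3 M in the 19 BLA libraries, made from 10 ng of RNA, and from 92.1 to 128 M in the 20 hippocampal libraries, made from 50 ng. In the hippocampus App, Mapt and Prnp, the genes related to the transgenes, were higher in APP/Tau mice by 0.45 ± 0.04, 0.22 ± 0.03 and 1.11 ± 0.05 (log2 fold change ± SE, edgeR adjusted p = 6.6e-06, 0.00061 and 2.9e-11), and in the BLA Prnp was higher by 0.58 ± 0.08 (edgeR adjusted p = 0.0023). In the BLA App and Mapt were at -0.15 ± 0.07 and 0.02 ± 0.06 (edgeR adjusted p = 0.256 and 0.897), and the genotype difference in App was lower in the BLA than in the hippocampus by 0.60 ± 0.08 (edgeR adjusted p = 0.00023). BLA tissue came from punches, and the summed level of 12 striatal and central amygdala markers ranged across them from 500 to 4760 CPM, the read count scaled to the effective size of its library. The punches differed by genotype in their medians, which were 1710 CPM in APP/Tau mice and 1210 CPM in controls for these markers and 854 and 1220 CPM for 8 BLA markers. The summed level of the BLA markers was 537 to 1500 CPM in the BLA and 644 to 949 CPM in the hippocampus, and that of 8 hippocampal markers was 613 to 1350 CPM in the hippocampus and 468 to 641 CPM in the BLA. The hippocampal libraries of naive control replicate 1 and trained control replicate 1 held 5.18% and 1.99% of their counts in 18S ribosomal RNA, against less than 1% in every other library.

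MHC class I molecules display peptides from inside the cell at its surface, where CD8 T cells and natural killer cells read them. A class I molecule is a heavy chain bound to the light chain beta-2 microglobulin; peptides made by the proteasome enter the endoplasmic reticulum through the transporter TAP, and tapasin, the product of Tapbp, holds the empty molecule beside it. Interferons raise the whole pathway, and Nlrc5 is the transactivator dedicated to class I promoters. In the brain the pathway is known from microglia and endothelium, and from neurons, where class I molecules take part in the remodelling of synapses.

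Promoter sequences are shown for the 4 members that encode the heavy and light chains, which make up the class I molecule. All 8 members rose in the hippocampus, so the rise does not set these 4 apart. The promoters of Tap1 and Tapbp were searched too but are not printed. RefSeq's promoter table (build GRCm38.p6) held 6 of the 8 members, all but Tap2 and Nlrc5, and the 250 bases before the annotated start are printed 5′ to 3′ on the strand of the gene. For H2-K1 the table gives 2 starts; the window of the second is printed, and that of the first, chr17:34000348-34000597, holds the same motifs except the last CCAAT. Capitals mark 4 short motifs searched on both strands, which do not overlap one another here: an NF-kappa-B site GGGATTCC, an interferon regulatory factor site TTTCNNTT, a cyclic AMP response element core TGACG and the CCAAT box CCAAT. The motifs were chosen after the sequences had been seen.
H2-K1, chr17:34000334-34000583, minus strand: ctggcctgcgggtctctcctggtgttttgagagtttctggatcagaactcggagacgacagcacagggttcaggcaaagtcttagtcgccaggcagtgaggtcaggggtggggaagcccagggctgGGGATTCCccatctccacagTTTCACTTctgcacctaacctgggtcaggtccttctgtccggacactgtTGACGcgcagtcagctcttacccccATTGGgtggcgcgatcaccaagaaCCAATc
H2-D1, chr17:35262844-35263093, plus strand: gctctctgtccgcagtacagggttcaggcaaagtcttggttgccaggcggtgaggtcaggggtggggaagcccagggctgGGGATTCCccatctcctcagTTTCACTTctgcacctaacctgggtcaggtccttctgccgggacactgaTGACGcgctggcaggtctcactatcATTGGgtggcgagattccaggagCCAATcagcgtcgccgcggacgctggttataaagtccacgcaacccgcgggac
H2-T23, chr17:36032702-36032951, minus strand: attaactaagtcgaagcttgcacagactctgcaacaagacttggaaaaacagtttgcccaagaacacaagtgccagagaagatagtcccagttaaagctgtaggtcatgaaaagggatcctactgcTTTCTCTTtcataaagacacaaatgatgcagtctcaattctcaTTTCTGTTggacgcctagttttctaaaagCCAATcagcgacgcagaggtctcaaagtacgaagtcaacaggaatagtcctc
B2m, chr2:122147437-122147686, plus strand: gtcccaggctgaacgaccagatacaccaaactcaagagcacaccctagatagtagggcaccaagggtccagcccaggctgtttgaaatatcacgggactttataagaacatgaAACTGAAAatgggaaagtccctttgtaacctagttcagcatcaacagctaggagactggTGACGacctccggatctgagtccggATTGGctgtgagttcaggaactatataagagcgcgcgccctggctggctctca

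The printed H2-K1 and H2-D1 stretches carry all 4 motifs in the same order. The NF-kappa-B letters were in these 2 members of the 6 and in 0.889% of 32851 promoters. The interferon regulatory factor letters were in H2-K1, H2-D1, H2-T23 and B2m and in 21.3% of all promoters. The TGACG core was in H2-K1, H2-D1, B2m and Tap1 and in 17.8% of all promoters, and CCAAT was in all 6 and in 33.8%. A match describes letters in this window and was not tested for binding.

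H2-K1, H2-D1, H2-T23, Tap1, Tap2 and Tapbp lie on chromosome 17 and B2m and Nlrc5 on chromosomes 2 and 8 (GENCODE M21, GRCm38). In controls the order of the members by CPM per kilobase of exon was led in both tissues by B2m, at 64.6 ± 7.87 in the hippocampus and 43.5 ± 5.02 in the BLA of naive mice (SD, n = 5 each). The heavy chains followed at lower levels: H2-D1 stood at 12.1 ± 1.41 and H2-K1 at 8.62 ± 1.32 CPM per kilobase in the naive control hippocampus. Tapbp came next at 6.53 ± 0.683, while H2-T23 at 2.62 ± 0.287 and Tap2 at 2.61 ± 0.17 did not differ beyond their spread. Exon length here counts every base in any annotated transcript, 2889 for H2-T23 and 3781 for Tap2. Their protein-coding transcripts held 1423 and 3531 different 50-base stretches, so how H2-T23 and Tap2 compare depends on the length used. Tap1 stood at 0.654 ± 0.0314 and Nlrc5, the least abundant member, at 0.0943 ± 0.0254. In the naive control BLA Tapbp, at 7.47 ± 0.257 CPM per kilobase, stood above H2-K1, at 5.60 ± 0.86.

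Some reads of these genes could also come from near-identical or overlapping genes, since neither the counting tool nor its strand setting is given in the sources used here. Of the 50-base stretches of their transcripts, 29.8% in H2-T23, 22.4% in Tapbp, 13.9% in H2-D1, 12.1% in Tap2, 6.87% in H2-K1 and 6.27% in Tap1 also occur in transcripts of other genes, against 0 in B2m and Nlrc5. The largest shares are with the pseudogene H2-T-ps for H2-T23, Gm19412 for Tapbp, H2-Q1 for H2-D1, Gm15821 for Tap2, H2-D1 for H2-K1 and Psmb9 for Tap1. These shares do not measure how far the values of these 6 genes are off, which is not known.

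In the hippocampus all 8 members rose in APP/Tau mice relative to controls, when the effect is averaged over naive and trained mice. Log2 fold changes ran from 0.48 for Tapbp to 1.22 for Nlrc5, with a median of 0.85, whereas the median over all 25791 genes tested was -0.001. In that comparison 11.1% of all genes passed edgeR's quasi-likelihood test at an adjusted p under 0.05, and 7.27% of all genes tested passed as higher. In bulk tissue a change in the number of cells of a type and a change in RNA per cell cannot be told apart.

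**Figure D1:**
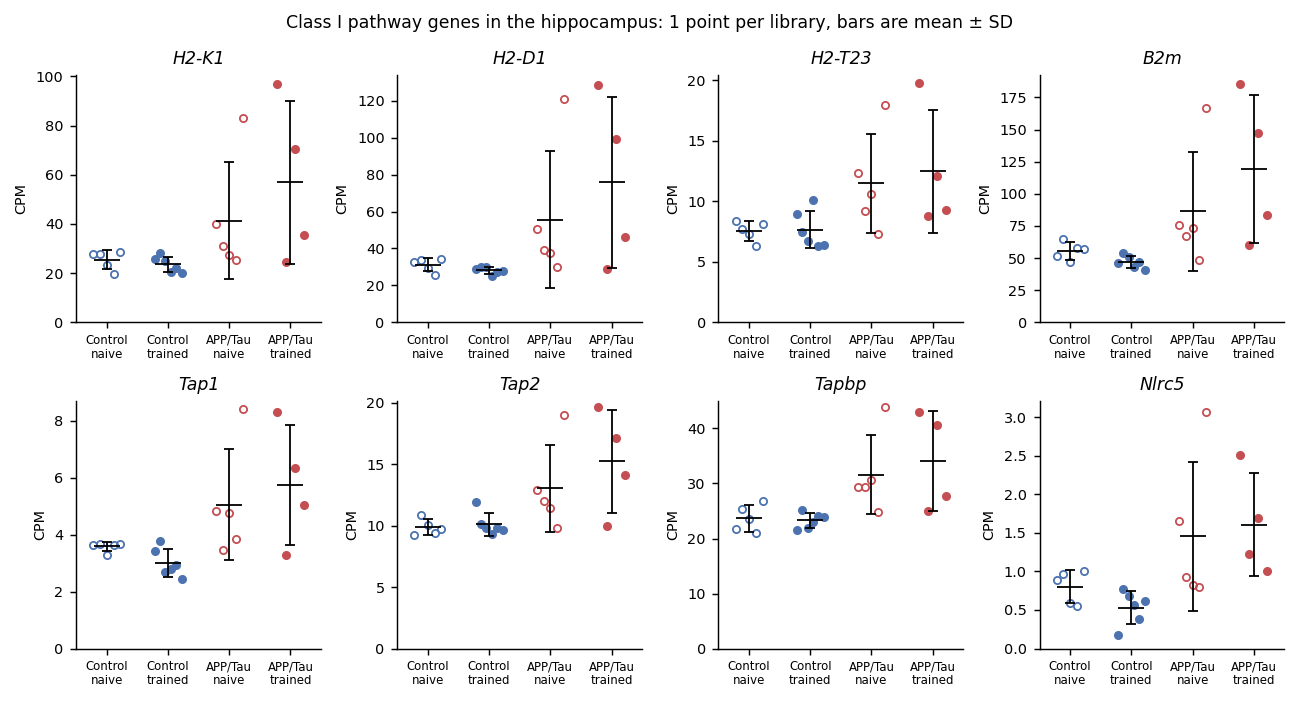
Library-scaled counts (CPM, linear axis from 0) of the 8 class I genes in the hippocampus, with 1 point per library and the mean ± SD of each group as black bars. Controls are blue and APP/Tau mice red, with open points for naive and filled points for trained mice; the APP/Tau points spread from within the control range to well above it, as in B2m, from 48.3 to 186 CPM.

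Among the heavy chains, H2-K1 and H2-D1 are the classical molecules that present peptides to CD8 T cells. H2-K1 was 39.8, 31.0, 27.3, 25.5 and 82.9 CPM in naive replicates 1 to 5 and 96.8, 24.7, 70.5 and 35.4 CPM in trained replicates 1 to 4 of the APP/Tau hippocampus. It was 27.8, 27.7, 23.3, 19.4 and 28.4 CPM in naive controls, and 20.2 at the lowest, 23.5 at the median and 28.0 at the highest in the 6 trained controls. Naive replicate 5 and trained replicates 1 and 3 were high, and 6 of the 9 APP/Tau libraries lay above all 11 controls while 3 lay within their range. H2-K1 rose by 0.98 ± 0.22 on the log2 scale (edgeR adjusted p = 0.0093).

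H2-D1 was 50.5, 39, 37.8, 29.8 and 121 CPM in naive and 129, 28.7, 99.4 and 46.5 CPM in trained APP/Tau replicates. It was 32.6, 33.9, 29.2, 25.8 and 34.4 CPM in naive controls, and 25.0 at the lowest, 28.5 at the median and 30.2 at the highest in trained controls. The same 3 APP/Tau libraries were highest, and 7 of 9 lay above all controls. H2-D1 rose by 1.12 ± 0.24 (edgeR adjusted p = 0.0067).

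H2-T23 encodes Qa-1, a nonclassical heavy chain recognised by inhibitory receptors of natural killer cells. Its range was 7.30 to 19.8 CPM (median 10.6) in APP/Tau and 6.27 to 10.13 CPM (median 7.44) in control hippocampus. The groups overlapped, with 5 of 9 APP/Tau libraries above all controls, and the change was 0.65 ± 0.16 (edgeR adjusted p = 0.0145).

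B2m encodes the light chain shared by all these heavy chains. It was 75.8, 67.4, 73.0, 48.3 and 167 CPM in naive and 186, 60.2, 147 and 83.6 CPM in trained APP/Tau replicates. It was 51.4, 64.4, 46.7, 58.2 and 57.2 CPM in naive controls, and 41.0 at the lowest, 46.4 at the median and 53.6 at the highest in trained controls. Of the 9 APP/Tau libraries 7 lay above all controls, and naive replicate 4 and trained replicate 2 lay within their range. B2m rose by 0.99 ± 0.19 (edgeR adjusted p = 0.0037).

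Tap1 and Tap2 form the heterodimer that pumps peptides into the endoplasmic reticulum. Tap1 was 4.83, 3.46, 4.75, 3.84 and 8.39 CPM in naive and 8.29, 3.29, 6.35 and 5.05 CPM in trained APP/Tau replicates, against 2.44 to 3.76 CPM (median 3.42) in the controls. Tap2 ranged from 9.77 to 19.6 CPM (median 12.9) in APP/Tau and from 9.27 to 11.9 CPM (median 9.78) in control libraries. For Tap1 7 and for Tap2 6 of the 9 APP/Tau libraries lay above all controls. Tap1 rose by 0.71 ± 0.16 and Tap2 by 0.49 ± 0.11 (edgeR adjusted p = 0.0079 and 0.0094).

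Tapbp, which encodes tapasin, ranged from 24.9 to 43.9 CPM (median 29.4) in APP/Tau and from 21.0 to 26.9 CPM (median 23.5) in control libraries. Here too 7 of 9 APP/Tau libraries lay above all controls, and the change of 0.48 ± 0.10 (edgeR adjusted p = 0.0055) was the smallest of the 8.

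Nlrc5, the class I transactivator, was 1.66, 0.931, 0.818, 0.803 and 3.07 CPM in naive and 2.51, 1.22, 1.69 and 1.00 CPM in trained APP/Tau replicates. It was 0.886, 0.972, 0.584, 0.555 and 1.01 CPM in naive controls and 0.178 to 0.776 CPM in trained controls. Of the APP/Tau libraries 5 of 9 lay above all controls, and the lowest control value, in trained replicate 1, was a library rich in 18S ribosomal RNA. Nlrc5 rose by 1.22 ± 0.28 (edgeR adjusted p = 0.0095), the largest change among the members.

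No member separated the genotypes in every library; 0.399% of all genes tested in the hippocampus had every APP/Tau library above every control. Trained replicate 1 and naive replicate 5 of the APP/Tau mice were among the 3 highest hippocampal libraries in all 8 members, and trained replicate 3 in 7. The coefficient of variation over libraries was larger in APP/Tau mice than in controls for every member: 23.3 to 62.2% against 7.74 to 38.2%.

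Split by training, the genotype effect in the hippocampus passed the test for 7 of 8 members in trained mice and for 0 of 8 in naive mice. In trained mice log2 fold changes were 0.54 for Tapbp to 1.59 for Nlrc5, B2m rose by 1.34 ± 0.27 (edgeR adjusted p = 0.013), and H2-T23 missed the threshold at 0.70 ± 0.22 (edgeR adjusted p = 0.0979); 2.8% of all genes passed there, 2.65% as higher. In naive mice all 8 members were above 0, from 0.40 to 0.86, with edgeR adjusted p of 0.173 to 0.299, where 0.202% of all genes passed. Unadjusted edgeR p was under 0.05 in 8 of 8, but the 0.202% counts adjusted calls and is no background for it. The share of all genes at an unadjusted p under 0.05 is not given here. DESeq2 and limma-voom also called 0 members in naive mice.

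The count in trained mice rested on few libraries. It was 0 without APP/Tau trained replicate 1 or 3, 1 without trained control replicate 3, 4, 5 or 6, 2 without trained control replicate 1, 3 without trained control replicate 2 and 1 without both libraries rich in 18S ribosomal RNA. Calls over all genes moved as well, from 721 to between 62 and 2234 when 1 library was left out. DESeq2 called 8 members and limma-voom 0.

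The difference between naive and trained mice was tested directly as the interaction of genotype and training, and no member passed. In the hippocampus the interaction was above 0 in all 8 members, from 0.09 ± 0.32 in H2-T23 to 0.72 ± 0.55 in Nlrc5, and B2m had the smallest unadjusted p, 0.083, at 0.71 ± 0.39. Across all genes the interaction gave 0 calls (0% of genes) with edgeR in the hippocampus, 1005 genes at an unadjusted p under 0.05 and 3 calls with DESeq2.

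Training itself, 1 h after the shock, gave no call among the members in either genotype. In the control hippocampus log2 fold changes ran from -0.59 ± 0.38 for Nlrc5 to 0.03 ± 0.15 for Tap2, and in the APP/Tau hippocampus from 0.10 ± 0.15 for Tapbp to 0.46 ± 0.29 for B2m. Unadjusted p was 0.125 or more in all 16 of these edgeR tests, and DESeq2 and limma-voom called 0 members. Over all genes edgeR called 0% in both, with 624 genes in controls and 1184 in APP/Tau mice at an unadjusted p under 0.05, and DESeq2 called 0 and 2.

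**Figure D2:**
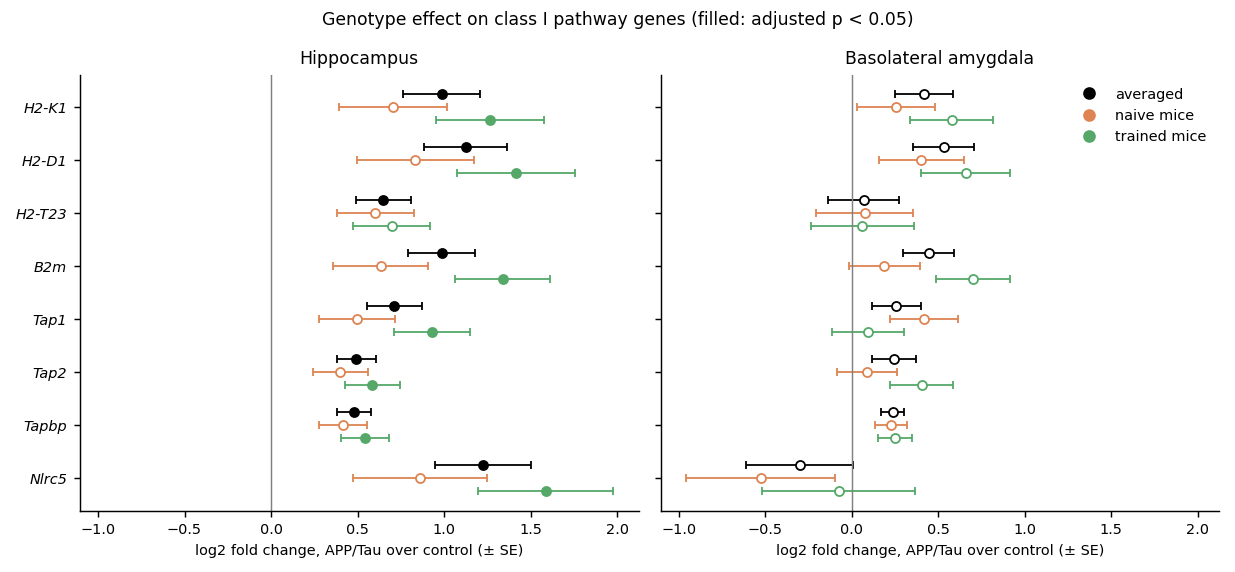
Log2 fold change of APP/Tau over control mice with its standard error for each class I gene, averaged over training (black), in naive mice (orange) and in trained mice (green); filled points passed edgeR's test at an adjusted p under 0.05. In the hippocampus all 8 averaged points are filled and lie between 0.48 and 1.22, and in the BLA no point is filled.

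In the BLA none of the 8 members passed the test for the averaged genotype effect, although 7 of 8 were above 0 and their median was 0.25 against 0.01 over all 23168 genes tested; 1.18% of all genes passed. Nearest to the threshold was Tapbp, with 0.24 ± 0.07 (edgeR adjusted p = 0.0759). B2m, at 0.44 ± 0.15, and H2-D1, at 0.53 ± 0.18, had edgeR adjusted p of 0.123 each, and H2-K1, at 0.42 ± 0.17, of 0.182. Unadjusted p was under 0.05 for these 4. The 1.18% counts adjusted calls, and the share of all genes at that unadjusted level is not given here. DESeq2 called H2-D1 and Tapbp, and limma-voom called 0.

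**Figure D3:**
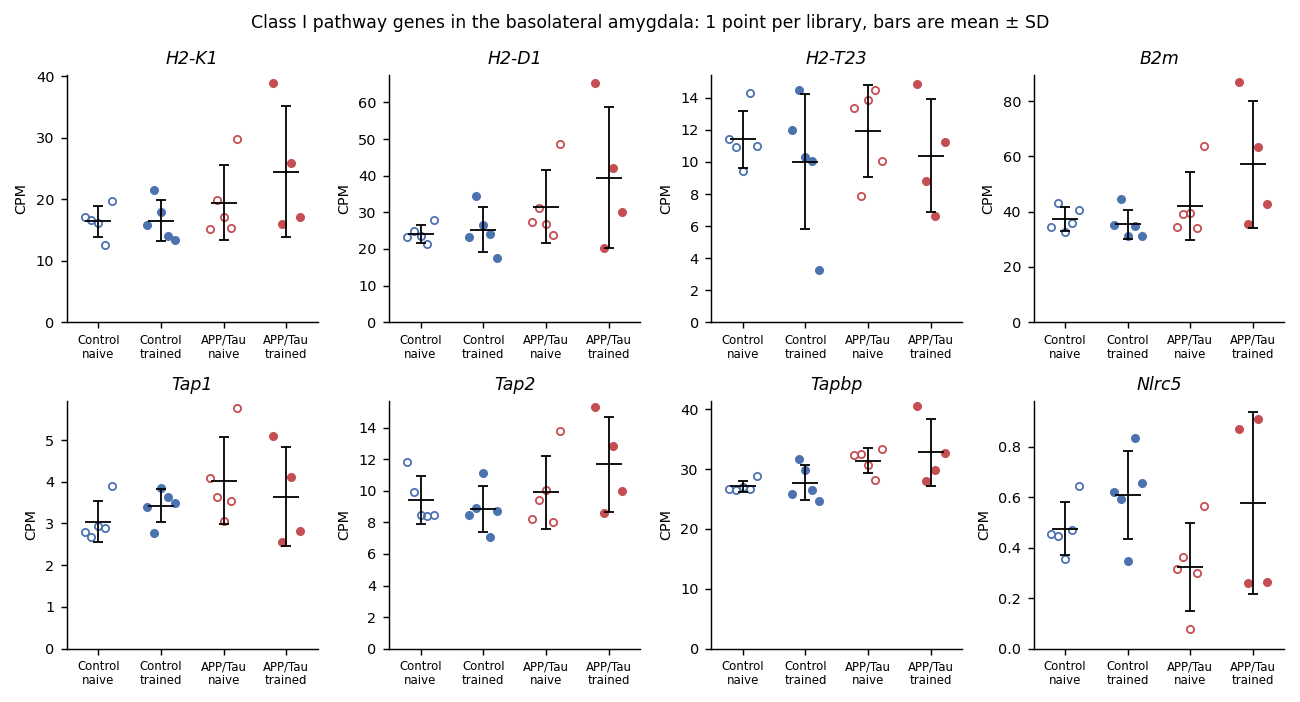
CPM (linear axis from 0) of the 8 class I genes in the BLA, with 1 point per library, the mean ± SD of each group as black bars, controls in blue, APP/Tau mice in red, open points for naive and filled points for trained mice. Most APP/Tau points lie within the control range; the highest B2m value is 86.8 CPM, in APP/Tau trained replicate 1.

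B2m in the BLA was 34.4, 39.1, 39.6, 34.2 and 63.6 CPM in naive and 86.8, 35.4, 63.5 and 42.7 CPM in trained APP/Tau replicates. It was 34.5, 43.1, 32.7, 36.0 and 40.5 CPM in naive and 35.1, 44.4, 31.3, 34.9 and 31.2 CPM in trained controls. Of the 9 APP/Tau libraries 3 lay above all controls, and the other 6 lay within their range.

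H2-D1 was 27.3, 31.1, 26.9, 23.9 and 48.6 CPM in naive and 65.2, 20.4, 42.0 and 30.2 CPM in trained APP/Tau mice, against 17.6 to 34.5 CPM (median 23.7) in controls. H2-K1 was 15.1 to 39 CPM (median 17.1) in APP/Tau mice and 12.6 to 21.5 CPM (median 16.4) in controls. For both heavy chains 3 of 9 APP/Tau libraries lay above all controls, and these were again naive replicate 5 and trained replicates 1 and 3. H2-T23 differed by 0.07 ± 0.21 (edgeR adjusted p = 0.894), with 1 APP/Tau library above all controls.

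Tap1 was 2.54 to 5.77 CPM in APP/Tau and 2.67 to 3.91 CPM in control BLA, and Tap2 was 8.04 to 15.3 CPM against 7.07 to 11.8 CPM. Their averaged differences were 0.26 ± 0.14 and 0.24 ± 0.13 (edgeR adjusted p = 0.343 and 0.302). Tapbp stood at 32.3, 32.5, 30.6, 28.1 and 33.4 CPM in naive and 40.6, 28.0, 29.8 and 32.7 CPM in trained APP/Tau mice, against 24.7 to 31.6 CPM in controls, and 5 of 9 APP/Tau libraries lay above all controls. Nlrc5 was the only member below 0, at -0.30 ± 0.31 (edgeR adjusted p = 0.641); it was covered by 4 to 52 counts per BLA library, and its coefficient of variation over APP/Tau libraries was 65.8%.

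Within training groups of the BLA the members called were 0 of 8 in naive mice, where 0.0388% of all genes passed, and 0 of 8 in trained mice, where 0.0432% passed. Unadjusted p was under 0.05 for Tap1 and Tapbp in naive mice and for H2-K1, H2-D1, B2m, Tap2 and Tapbp in trained mice. The shares of all genes at that unadjusted level are not given here. DESeq2 and limma-voom called 0 in either. The training effects and the interaction called 0 members and 0% of all genes with edgeR. At an unadjusted p under 0.05 no member was found in these 3 comparisons, where over all genes 484 in controls, 1356 in APP/Tau mice and 894 for the interaction were; DESeq2 called 2, 14 and 0 genes and no member.

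The BLA count moved with single libraries as well. APP/Tau trained replicate 2 was the lowest APP/Tau library for H2-D1, Tap1 and Tapbp, so leaving it out raises their differences by construction. For B2m it was the lowest of the 4 trained APP/Tau libraries, at 35.4 CPM, so the same holds for the trained and averaged differences of B2m. Without it 3 members passed for the averaged effect (H2-D1, B2m and Tapbp) and B2m in trained mice. In those fits 2176 and 677 of all 23626 genes passed, against 273 and 10 of 23168 with every library. Without trained control replicate 2 Tapbp passed for the averaged effect, as did 1260 of 23038 genes. With the striatal and central amygdala markers as a covariate 0 members and 26 of 23168 genes passed.

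Set side by side, the averaged genotype difference was smaller in the BLA than in the hippocampus in all 8 members, by 0.26 ± 0.17 for Tap2 to 1.54 ± 0.42 for Nlrc5 on the log2 scale, but in the fit over both tissues no member passed the test of that difference. That fit treated same-numbered libraries of the 2 tissues as independent, and with the number as a block no member passed either. Without the block the smallest unadjusted p was 0.00084, for Nlrc5 (edgeR adjusted p = 0.268), and H2-T23, B2m and Tap1 were also under 0.05 before adjustment. The share of all genes at that unadjusted level is not given here. DESeq2 and limma-voom called 0 members, and edgeR called 0.0262% of all genes. The 2 tissues differ in RNA input, dissection and depth, and tissue and library preparation cannot be told apart.

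Between the tissues of controls, H2-K1 and B2m were lower in the BLA than in the hippocampus, by 0.57 ± 0.20 and 0.49 ± 0.18 on the log2 scale (edgeR adjusted p = 0.0164 and 0.0181). H2-T23 and Tapbp were higher in the BLA, by 0.49 ± 0.18 and 0.22 ± 0.09 (edgeR adjusted p = 0.0222 and 0.0271). With 55.4% of all genes called between the tissues, 26.8% higher and 28.6% lower, 4 of 8 members (2 in each direction) is near the background. Same-numbered libraries were treated as independent here too. With the number as a block H2-D1 was also called in controls, as lower in the BLA. H2-T23 and Tapbp did not pass without trained control replicate 2 of the BLA, and their highest edgeR, DESeq2 or limma-voom adjusted p over the alternatives was 0.067 and 0.0699. In APP/Tau mice 6 of 8 members were lower in the BLA, with 51% of all genes called in either direction and 27.6% lower. Nlrc5 was lower by 1.82 ± 0.32, H2-K1 by 1.15 ± 0.22, B2m by 1.05 ± 0.19 and H2-D1 by 0.88 ± 0.23 (edgeR adjusted p = 8.9e-06, 3.3e-05, 2.0e-05 and 0.0019), and Tap1 and Tap2 by 0.49 ± 0.16 and 0.39 ± 0.13 (edgeR adjusted p = 0.00997 and 0.0104). Tap1 did not pass without hippocampal APP/Tau trained replicate 1, where its log2 difference was -0.37 (edgeR adjusted p = 0.051).

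**Figure D4:**
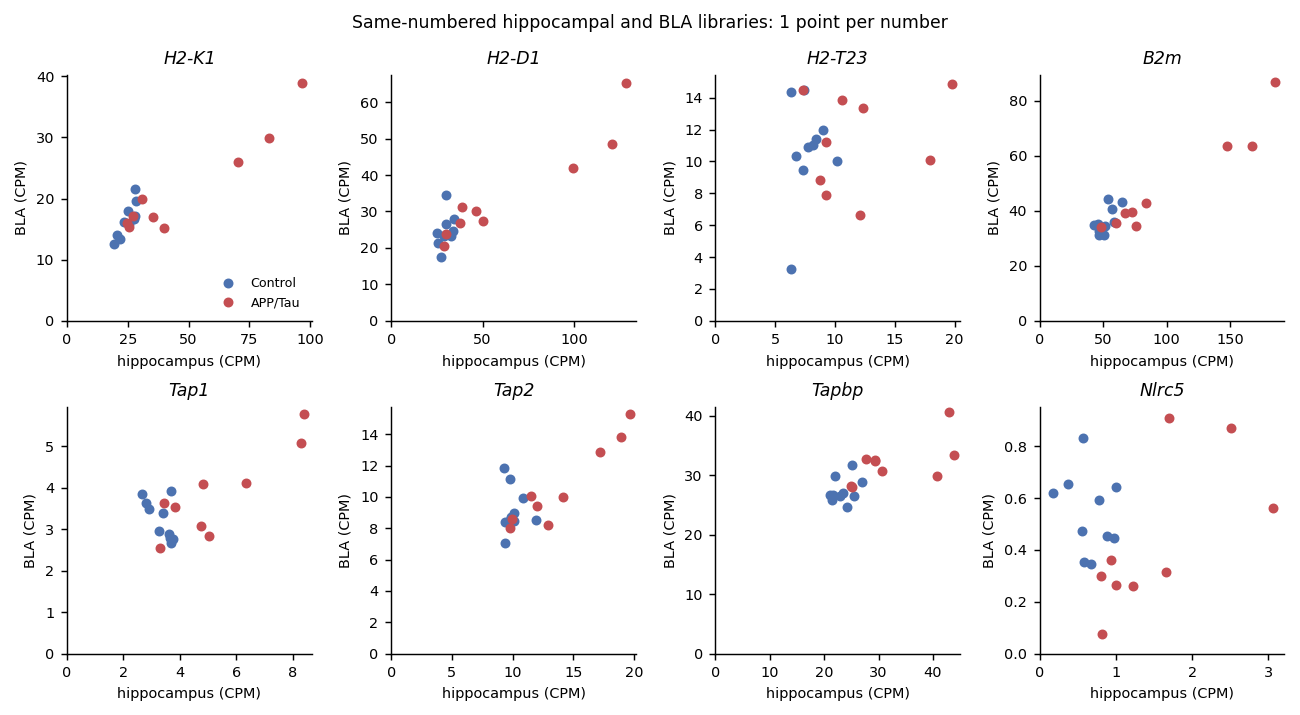
Level of each class I gene (CPM, linear axes from 0) in the hippocampus (x) and the BLA (y), with 1 point for each of the 19 library numbers present in both tissues, controls in blue and APP/Tau mice in red. For H2-K1, H2-D1 and B2m, 3 APP/Tau points stand apart at the upper right, with hippocampal B2m of 147 to 186 CPM.

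The labels number the libraries of the 2 tissues alike, and the 19 numbers found in both have the same genotype and training, but whether a number marks a mouse is not stated. The 3 highest libraries carried the same 3 numbers in both tissues for H2-K1, H2-D1, B2m, Tap1 and Tap2, the same 2 for Tapbp and Nlrc5, and the same 1 for H2-T23. In APP/Tau mice the hippocampal levels of H2-K1, H2-D1 and B2m fell into a low range of 6 libraries and a high range of 3, so no correlation is given over the 9. Over the 9 APP/Tau numbers r was 0.809 for Tap1 and 0.926 for Tap2, and rho was 0.767 and 0.833 (exact permutation tests, 2-sided, p = 0.00896 and 0.000918 for r and 0.0214 and 0.00827 for rho).

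In the 10 controls r was 0.875 for H2-K1, with rho = 0.879 (permutation tests, 2-sided, p = 0.00094 and 0.0015). It was 0.303 to 0.67 for H2-D1, H2-T23, B2m and Tapbp, -0.0485 for Tap2 and -0.261 for Nlrc5. For Tap1 it was -0.643, with rho = -0.636 (permutation tests, 2-sided, p = 0.0543 and 0.0538), opposite in sign to the APP/Tau value, and the difference was not tested.

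Of 16 relations, 8 members in each of 2 genotypes, 6 passed for r and 4 for rho after Benjamini-Hochberg adjustment over the 16. Naive and trained mice were pooled within a genotype for these relations, and group means were not subtracted. The share of all genes that would pass is not given here, so these counts have no background. The 6 were H2-K1 in controls and H2-K1, H2-D1, B2m, Tap1 and Tap2 in APP/Tau mice. In APP/Tau mice H2-K1, H2-D1 and B2m fell into the low and high ranges given above. Their pass can come from that split alone, so it is counted here but not read as a relation. For rho, H2-K1 and Tap1 in APP/Tau mice did not pass (permutation tests, adjusted p = 0.108 and 0.0685). Without the 2 library numbers farthest from the median hippocampal level r was 0.782 for H2-K1 in 8 controls, and 0.82 for Tap2 and 0.454 for Tap1 over 7 APP/Tau numbers (permutation tests, 2-sided, unadjusted p = 0.0204, 0.023 and 0.311). The relation of Tap1 rests on those libraries. For Tap1 and Tap2 the same 3 numbers were highest in both tissues, and leaving out 2 numbers does not take them all out. With 7 or 8 numbers left, 0 of 16 passed after adjustment.

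Around these members, the pathway upstream and downstream was read from gene lists, whose counts stand against the 7.27% of all genes called higher in the hippocampus. Of 14 other class I heavy chains tested in the hippocampus 4 rose and none fell, with a median of 0.41. These were Mr1, which presents vitamin B metabolites, by 0.47 ± 0.11, H2-Q4 by 0.93 ± 0.22, H2-M3, which presents formylated peptides, by 0.49 ± 0.12, and Cd1d1, which presents lipids, by 0.73 ± 0.20 (edgeR adjusted p = 0.010, 0.011, 0.015 and 0.024). Cd1d1 lies outside the naming rule and was added after its value was seen. Of 10 genes of peptide trimming and general loading, only Erap1, the peptidase that trims peptides in the endoplasmic reticulum, passed, at 0.37 ± 0.10 (edgeR adjusted p = 0.024), and the median of the list was 0.05; 1 of 10 is near the background.

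Of 6 immunoproteasome genes 4 rose. Psmb9 and Psmb8, inducible catalytic subunits whose genes lie beside Tap1 and Tap2, rose by 0.98 ± 0.21 and 1.09 ± 0.24 (edgeR adjusted p = 0.0073 and 0.0084), and Psme1, a subunit of the PA28 activator, by 0.24 ± 0.06 (edgeR adjusted p = 0.015). Psmb9 shares sequence with Tap1 transcripts, as given above.

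Among 23 regulators of class I transcription and interferon signalling 8 rose and none fell, with a median of 0.02. They included Irf8, a transcription factor of myeloid cells, by 1.70 ± 0.26, Irf9, a subunit of the interferon-stimulated gene factor, by 0.68 ± 0.15, and Nfkb1, an NF-kappa-B subunit, by 0.35 ± 0.08 (edgeR adjusted p = 0.00058, 0.0088 and 0.011). Of 22 interferon-response genes 18 rose, with a median of 0.98, and all 22 were above 0. Among them were Ifit3, by 1.11 ± 0.15, the chemokine Cxcl10, by 2.98 ± 0.43, and Ifit1, by 1.12 ± 0.19 (edgeR adjusted p = 0.00031, 0.00045 and 0.0011). Their direction was already known from earlier results of these data.

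The list of class I receptors, which also holds related immune receptors, was low in abundance: 9 of 11 passed the filter, and their summed level was 2.19 to 10.7 CPM in APP/Tau and 1.76 to 2.77 CPM in control hippocampus. Of these 9, 3 rose: Lilrb4a, an inhibitory receptor of myeloid cells, by 3.40 ± 0.47, Pirb, a paired receptor known to bind class I molecules, by 2.13 ± 0.35, and Pilra by 0.58 ± 0.14 (edgeR adjusted p = 0.00031, 0.00093 and 0.012). Of the 3 only Pirb is established as a receptor of class I molecules. MHC class II genes, which present peptides from outside the cell, rose in 7 of 8, with a median of 1.42. H2-DMb1 rose by 1.34 ± 0.23, Cd74, the invariant chain, by 2.75 ± 0.49, and H2-Ob by 1.34 ± 0.25 (edgeR adjusted p = 0.0016, 0.0017 and 0.0027).

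In the BLA, where 1.18% of all genes passed, these lists gave 5 calls. Before the filter these lists held 20 other heavy chains, 10 trimming, 6 immunoproteasome, 23 regulator, 22 interferon-response, 11 receptor and 8 class II genes. Not all were tested in the BLA, and the number tested is not given here, so the 5 calls are not read against that share. No other heavy chain, trimming, immunoproteasome or interferon-response gene was called with edgeR; the interferon list was above 0 in 22 of 22 with a median of 0.34. Irf8 rose by 0.96 ± 0.21, Ifngr1, a subunit of the interferon-gamma receptor, by 0.38 ± 0.09, Lilrb4a by 2.91 ± 0.69, H2-Oa by 1.22 ± 0.27 and Cd74 by 2.61 ± 0.59 (edgeR adjusted p = 0.034, 0.044, 0.044, 0.037 and 0.040).

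Microglial markers were also higher in APP/Tau mice. Of 17 microglial markers 16 rose in the hippocampus, with a median of 1.12, and those with the smallest p were Tyrobp, a signalling adaptor, at 2.14 ± 0.26, the protease Ctss at 1.71 ± 0.25 and the receptor Trem2 at 1.85 ± 0.27 (edgeR adjusted p = 9.9e-05, 0.00048 and 0.00048). Their summed level was 595 to 2250 CPM (median 933) in APP/Tau and 469 to 566 CPM (median 502) in control hippocampus. In the BLA 9 of 17 rose, with a median of 0.51, and the sums were 530 to 1380 CPM (median 753) and 471 to 601 CPM (median 521); Tyrobp and Csf1r, a growth factor receptor, rose by 1.45 ± 0.25 and 0.51 ± 0.09 (edgeR adjusted p = 0.013 and 0.016). Tmem119, a marker of resting microglia, was the exception in the hippocampus, at -0.04 ± 0.09, and was named after its value was seen. None of the 17 markers was at 0 in all libraries of a genotype, and the part of microglia in the class I differences was not tested.

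**Figure D5:**
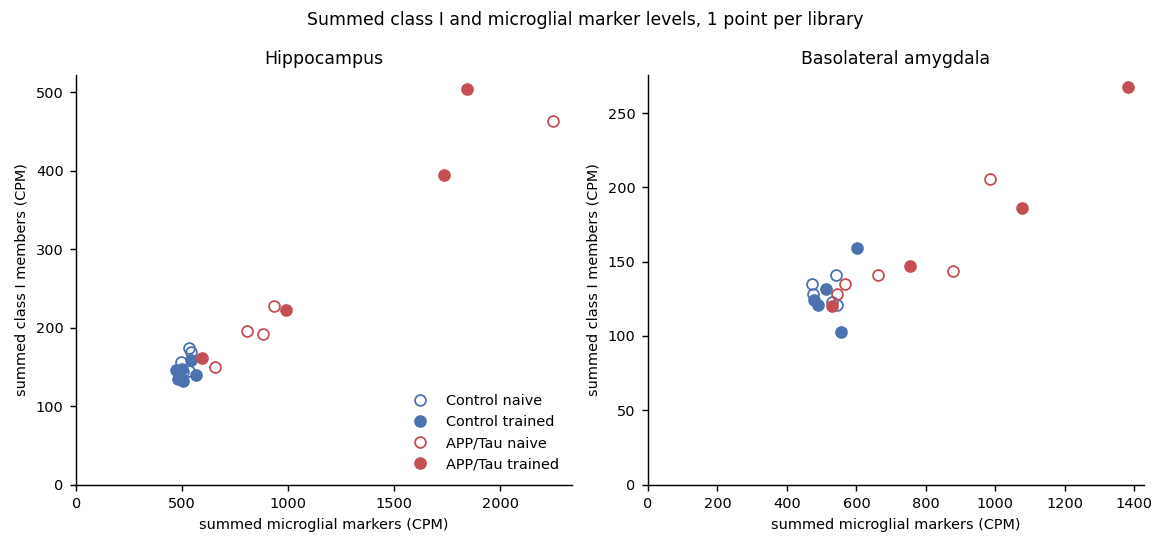
Summed CPM of the 8 class I genes (y) against summed CPM of 17 microglial markers (x), with 1 point per library and linear axes from 0; controls are blue, APP/Tau mice red, naive open and trained filled. In the hippocampus the 3 libraries with the highest class I sums, 395, 463 and 504 CPM, also had the highest microglial sums, 1736, 2249 and 1842 CPM.

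The library with the highest class I sum in the hippocampus, APP/Tau trained replicate 1, had 504 CPM of class I genes and 1842 CPM of microglial markers. In APP/Tau naive replicate 5 the sums were 463 and 2249 CPM, and in trained replicate 3 they were 395 and 1736 CPM. The control sums were 132 to 175 CPM for class I genes. In the BLA the same-numbered libraries had class I sums of 268, 206 and 186 CPM and microglial sums of 1381, 984 and 1078 CPM, again the 3 highest of both.

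Markers of other cell types were read in the same way. Of 10 astrocytic markers 6 rose in the hippocampus with a median of 0.26, among them Aqp4, the water channel of astrocyte endfeet, by 0.81 ± 0.18, Aldoc by 0.17 ± 0.05 and Sox9 by 0.49 ± 0.14 (edgeR adjusted p = 0.0093, 0.031 and 0.032), and Aldoc rose in the BLA by 0.34 ± 0.07 (edgeR adjusted p = 0.023). Astrocytic sums were 3730 to 5400 CPM in APP/Tau and 3790 to 4220 CPM in control hippocampus. Of 10 endothelial markers 3 rose, Ly6c1, Slco1a4 and Pecam1, by 0.26 ± 0.07, 0.19 ± 0.05 and 0.18 ± 0.05 (edgeR adjusted p = 0.020, 0.023 and 0.042), and the sums were 211 to 283 against 191 to 240 CPM. Of 10 markers of border macrophages and monocytes 4 rose, among them Mrc1, F13a1 and Cd163, by 0.80 ± 0.20, 0.88 ± 0.22 and 0.70 ± 0.19 (edgeR adjusted p = 0.015, 0.018 and 0.027), with sums of 6.67 to 13.7 against 3.95 to 11.1 CPM. The other was S100a9, a calcium-binding protein of neutrophils and monocytes, by 2.30 ± 0.71 (edgeR adjusted p = 0.043), which was named after its value was seen.

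T and natural killer cell markers, the cells that read class I molecules, summed to 3.65 to 7.91 CPM in APP/Tau and 3.07 to 5.20 CPM in control hippocampus, and of the 13 tested only Klrb1c rose, by 2.88 ± 0.72 (edgeR adjusted p = 0.016), a share near the 7.27% of all genes. Of 11 neuronal markers Map2 fell by 0.23 ± 0.07 (edgeR adjusted p = 0.038), where 979 of all 25791 genes fell, and their sums were 7460 to 12400 CPM in APP/Tau and 10900 to 12400 CPM in control hippocampus. Among the regional markers in the hippocampus, Prox1, Spag5 and Wfs1 of the hippocampal list fell by 0.48 ± 0.12, 0.35 ± 0.11 and 0.38 ± 0.12 (edgeR adjusted p = 0.019, 0.044 and 0.046) and Etv1 and Lmo3 of the BLA list by 0.37 ± 0.08 and 0.25 ± 0.06 (edgeR adjusted p = 0.0096 and 0.013). Of the striatal list Pde10a fell by 0.27 ± 0.08 and Ppp1r1b rose by 0.27 ± 0.09 (edgeR adjusted p = 0.028 and 0.045). B cell, choroid plexus, meningeal and blood lists gave no call with edgeR in either tissue. The part of these cell types in the class I differences was not tested.

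The genes whose levels followed the members most closely were found by the correlation of deviations from group means with the mean of the members, a description across libraries that share their depth and scaling. Subtracting group means leaves APP/Tau naive replicate 5 and trained replicates 1 and 3, the highest for B2m in both tissues, above the rest of their groups. An r can come from those libraries alone, and r without them is not given here. In the hippocampus, over 20 libraries and 16613 genes, these were LOC118568331 (r = 0.976), Vim, an intermediate filament of reactive astrocytes (0.975), Csf1, the growth factor of microglia (0.972), Prdx6, a peroxidase (0.969), and Gbp2, an interferon-induced GTPase (0.969). In the BLA, over 19 libraries and 16440 genes, they were Atp6v0e, a subunit of the proton pump of lysosomes (0.908), Igsf6 (0.902), Fcgr3, an Fc receptor (0.897), Fxyd1 (0.896) and Lamp1, a lysosomal membrane protein (0.894). Each member is part of the mean it was compared with, so its r is raised by construction and cannot be set against those of the other genes. The members ranged from 0.822 for Nlrc5 to 0.985 for H2-D1 in the hippocampus. In the BLA, where Nlrc5 was left out for a mean under 1 CPM, they ranged from 0.368 for H2-T23 to 0.979 for H2-D1.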

How the data were processed

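Poly(A) RNA from RiboTag input lysates was sequenced in paired reads, per the labels' protocols. The authors deposited whole-number read counts per gene symbol and library without normalization; per the submitters' processing notes, reads were trimmed with Trimmomatic 0.39 and the build was mm39. How reads were aligned, assigned to genes and annotated, and with which strand setting, is not given in the sources used here. Even numbers made up 54.3 to 69% of counts of 1 to 20 per library, and how mates were counted is not given, so small counts may rest on fewer fragments.

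Counts were fitted per tissue with 4 group means, and over both tissues with all groups, in R 4.3.3 with edgeR 4.0.16 (filterByExpr with minimum count 10 and minimum total 15, TMM factors, trended dispersion, 2-sided quasi-likelihood F test). Benjamini-Hochberg adjustment ran over all genes of a comparison, with a threshold of 0.05. A standard error is the absolute log2 fold change divided by the root of its F statistic. Levels are CPM with TMM factors over all 39 libraries. Relations between tissues used log2(CPM + 0.5), with 100000 permutations for 10 numbers and exact tests for fewer. The alternatives were DESeq2 1.42.0, limma-voom (limma 3.58.1), RLE factors, no count filter, genes at a mean of at least 1 CPM, blocking on the replicate number, fits of 2 groups alone, a striatal marker covariate and each library left out in turn; leaving out the libraries over 1% 18S ribosomal RNA was chosen after seeing the data. The fits were tested on simulated data. No duplicate libraries were found: among 171 pairs of BLA libraries chi-square per gene was at least 10, and among 190 hippocampal pairs at least 19.9. Libraries are from separate labelled samples; where they are not from separate mice, p-values measure only the spread between samples.

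The members and gene lists were chosen with earlier results of these data known. Named genes are the 8 members, up to 3 called genes of each other list with the smallest p per tissue, the 5 genes most alike per tissue, and App, Mapt and Prnp; 1 gene that this rule selects is not reported here. Gene positions, exon lengths and transcripts came from GENCODE M21 (GRCm38) and promoters from RefSeq (GRCm38.p6); these coordinates are not those of mm39.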

Additional observations from a re-analysis of the deposited data

Results flagged for a closer look

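In 10 of 64 combinations of member and group, 1 library stood far from the others of its group, by a criterion that chance alone meets in about 1 in 20; the members share libraries, so the 10 are not independent. Of these, 6 are naive APP/Tau replicate 5, the highest of its 5. In the hippocampus it was at 82.9 CPM for H2-K1 (next 39.8), 121 for H2-D1 (next 50.5), 167 for B2m (next 75.8) and 8.39 for Tap1 (next 4.83). In the BLA the library of that number was at 48.6 CPM for H2-D1 (next 31.1) and 63.6 for B2m (next 39.6).

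The other 4 were control libraries. Naive control replicate 5 of the BLA was high for Tap1, at 3.91 CPM (next 2.95), and for Tapbp, at 28.8 CPM (next 26.9). In the hippocampus naive control replicate 3 was low for Tap1, at 3.28 CPM (next 3.62), and trained control replicate 1, a library rich in 18S ribosomal RNA, was high for Tap2, at 11.9 CPM (next 10.12).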

How the results depend on the processing

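All 8 members passed for the averaged genotype effect in the hippocampus under every alternative and with each library left out, and 0 passed in naive mice of either tissue, for training, for the interaction and for the difference between tissues in the genotype effect. In trained mice of the hippocampus (7 members) limma-voom called 0, the fit without libraries over 1% 18S ribosomal RNA 1 and fits without 1 library 0 to 8. For the averaged effect in the BLA (0) DESeq2 called 2 and fits without 1 library 0 to 3, and for trained BLA mice 0 to 1. Between tissues in controls (4) the fits without 1 library called 2 to 4. Of the relations between tissues, 0 of 6 passed after adjustment without the 2 farthest library numbers, with 7 or 8 left. Directions turned only in small differences. H2-T23 in the BLA was -0.040, -0.074 and -0.0064 for the averaged, naive and trained effects with the striatal covariate and -0.036 for the trained effect with the replicate block, and Nlrc5 in the trained BLA was 0.066 with the block. Without 1 library H2-T23 ranged from -0.047 to 0.15, -0.0043 to 0.19 and -0.17 to 0.23 for the averaged, naive and trained BLA effects; in the naive BLA B2m ranged from -0.0097 to 0.26 and Tap2 from -0.068 to 0.18; in the trained BLA Tap1 ranged from -0.11 to 0.24 and Nlrc5 from -0.38 to 0.17. Between tissues, Tap1 in controls ranged from -0.080 to 0.013, and was 0.00090 without libraries over 1% 18S ribosomal RNA, while in APP/Tau mice H2-T23 ranged from -0.21 to 0.061 and Tapbp from -0.095 to 0.044. Over all genes, calls for the averaged hippocampal effect were 2854, against 4335 with DESeq2, 1803 without the 18S-rich libraries and 1171 to 4465 without 1 library. In trained hippocampus they were 721, against 1590 (DESeq2), 35 (limma-voom), 1456 (replicate block), 227 (without the 18S-rich libraries) and 62 to 2234 (without 1 library), and in naive hippocampus 52, against 744, 24, 83 (mean of 1 CPM), 21 (only 2 groups), 21 (without the 18S-rich libraries) and 18 to 260. For the averaged BLA effect they were 273, against 1191 (DESeq2), 64 (limma-voom), 44 (replicate block), 26 (striatal covariate) and 45 to 2176. DESeq2 called 108 in naive BLA (9) and 196 in trained BLA (10), where only the 2 groups gave 27 and 6 and leaving out 1 library 8 to 16 and 8 to 677; the difference between tissues in the genotype effect (7) had 41 with DESeq2, 4 with limma-voom, 30 with the replicate block and 2 to 25 without 1 library. The causes were not tested. Title numbers pair samples within a tissue only by name: the correlation of deviations averaged 0.077 over 27 hippocampal and -0.043 over 27 BLA pairs. Across tissues it averaged 0.27 over 19 pairs, 16 of them over 0.1, and 14 libraries correlated best with their own number; with this number as a replicate block the members called between tissues were 5 in controls, H2-D1 being added at -0.28, and 6 in APP/Tau mice. Nlrc5 in the BLA rested on 4 to 52 counts per library, and the part of depth in its result was not tested.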
